A study of Mus musculus with 15 samples.

Results

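The sites described here are the 1529 binding sites of the RNA-binding protein SAM68 on day 0, in undifferentiated mouse embryonic stem cells, that lay in genes without any site in the lists of day 3 and day 10. They were chosen by the gene ID alone, as every row of the day 0 list whose Ensembl ID, version dropped, was absent from both later lists. They belonged to 650 genes, against 5056 genes and 29740 sites in the whole day 0 list, so that they made up 5.14% of the sites and 12.9% of the genes of that day. The 0 sites of day 3 and day 10 are therefore the rule and not a finding, and values drawn from them below are a description.

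SAM68 was mapped by iCLIP2 in E14 cells, an established line of mouse embryonic stem cells, with 5 libraries for each of 3 days. Day 0 cells were kept without feeder cells on gelatin with serum, LIF and the inhibitors of GSK3 and MEK known as 2i, day 3 cells were embryoid bodies grown in hanging drops in medium with 10% serum, and day 10 cells were embryoid bodies grown in spheroid plates. All were crosslinked with UV light of 254 nm at 150 mJ/cm2, and only the embryoid bodies were first taken apart with the enzyme TrypLE. Medium, culture format and dissociation thus differ along with the day, and their effects cannot be told apart. The deposited values are 1 list of called sites for each day, 29740 for day 0, 28266 for day 3 and 74287 for day 10, without counts for single libraries.

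SAM68, the product of Khdrbs1, belongs to the STAR family, whose KH domain binds RNA rich in A and U, with UAAA-like motifs preferred. It is known for roles in alternative splicing and in the choice of RNA ends, and it binds introns of nascent transcripts as well as mature RNA. In iCLIP2 the crosslinked nucleotide is found from the place where reverse transcription stops, so that a site marks contact with a transcript that was present in the cells. Embryonic stem cells in 2i hold the naive state of pluripotency, run by factors such as Nanog, Esrrb, Klf4 and Prdm14, and they also transcribe part of the germline programme.

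A site was shown with its letters where a reference sequence was at hand, because the contact of SAM68 with RNA is a matter of sequence. No genome was used here, and the RefSeq tables of promoter windows and miRNA hairpins (GRCm38.p6) covered 6 of the 1529 sites, which were taken by this coverage and not by their letters. The 5 windows come from promoter windows of the gene itself or of a gene nearby, run 15 nt to each side of the site centre on the strand of the bound RNA, are written as DNA, and the capitals mark the 5 nt of the site.
Jam2, chr16:84822800-84822830, plus strand: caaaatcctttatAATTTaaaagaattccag
Crxos, chr7:15901633-15901663, plus strand: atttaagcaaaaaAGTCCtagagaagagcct
Lamb2, chr9:108490442-108490472, plus strand: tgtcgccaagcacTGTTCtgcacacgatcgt
4930461G14Rik, chr9:58463807-58463837, plus strand: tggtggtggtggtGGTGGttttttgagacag
4930461G14Rik, chr9:58463812-58463842, plus strand: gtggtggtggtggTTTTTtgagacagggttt
The Jam2 window, in the gene with most sites of all those described here, is rich in A and T throughout, with 77.4% of its letters A or T, and holds TAAA and TTAA around the site. The Crxos site lies 2 nt past an annotated start of that gene, at 88.9% of the RefSeq span of the gene from its 5' end. Its window holds TTAA upstream of the site. The remaining 3 windows, of Lamb2 and of 2 adjoining sites in the long non-coding RNA 4930461G14Rik, hold neither of these motifs. In the long non-coding RNA the sites fall where a GGT repeat passes into a run of T. TAAA and TTAA, searched on the strand of the RNA, were thus in 1 and 2 of 5 windows, beside 13 and 12 of 90 windows around other day 0 sites and 9.62% and 8.39% of 32851 stretches of the same length at the middle of all promoter windows. The 2 motifs can overlap each other in letters such as TTAAA, and with 5 windows these shares are a description only.

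The site in a miRNA gene lay in the hairpin of Mir196a-1, a miRNA encoded within the Hoxb cluster of developmental genes. It covers bases 51 to 55 of the hairpin, in the loop between the mature arms, which are shown with their seeds, bases 2 to 8, in capitals.
Mir196a-1 hairpin, chr11:96265164-96265265, plus strand: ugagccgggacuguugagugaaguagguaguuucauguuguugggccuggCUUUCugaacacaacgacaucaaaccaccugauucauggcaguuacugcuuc
mmu-miR-196a-5p: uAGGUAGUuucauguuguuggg
mmu-miR-196a-1-3p: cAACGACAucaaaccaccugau
This was the single site of the gene, and it lay outside both mature sequences.

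Most of the genes bound on day 0 only carried few sites. A single site was found in 423 of the 650 genes, 65.1%, beside 29.6% of the 4406 day 0 genes that also had a later site. The median was 1 site per gene, against 3 in the other day 0 genes, and the mean 2.35, against 6.40. At the upper end, 54 genes held at least 5 sites, 20 at least 10 and 5 at least 20. These 5 genes, Jam2, Sgcz, Cdyl2, Mme and Dnajc6, held 236 of the 1529 sites, 15.4%.

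The share of genes without a later site depended on how many sites a gene had on day 0. Of 1726 genes with 1 day 0 site, 423 had no later site, 24.5% (exact 95% interval 22.5% to 26.6%). Of genes with 2 to 4 sites it was 173 of 1663, 10.4%, and of genes with 5 to 9 sites 34 of 894, 3.80% (2.65% to 5.27%). Among genes with 10 to 19 sites 15 of 481 qualified, 3.12%, and among genes with 20 or more 5 of 292, 1.71%. Here and below, intervals cover counting error only, since sites of 1 gene share their transcript and the spread between the 5 libraries of a day is not in the lists. Without values for single libraries, a later site that fell short of being called and a later site that was lost cannot be told apart.

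**Figure D1:**
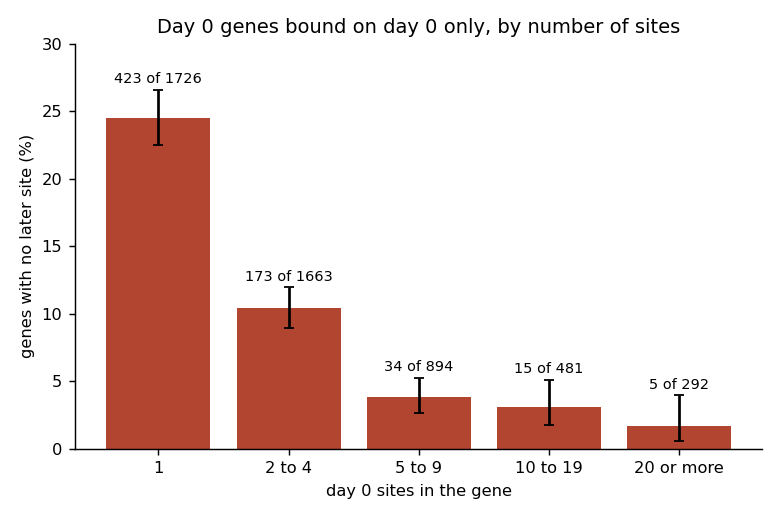
Share of day 0 genes that had no site on day 3 and day 10 (vertical axis, percent), by the number of day 0 sites in the gene (horizontal axis), with exact 95% binomial intervals and the number of genes above each bar. The share was 24.5% for genes with 1 site and 1.71% for genes with 20 or more.

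The ratio of a gene's share of the list between days has an exact conditional interval, and with 0 later sites its 95% interval lies below 1 from 6 day 0 sites for day 3 and from 3 for day 10, whose list was 2.50 times as long as that of day 0. For day 3 against day 0 this was so for 47 of the 650 genes, where 4.3% of the 6346 genes with a site on either day were called lower. For day 10 against day 0 it was so for 122 of the 650, where 10.5% of 7451 genes were called lower. The choice of the genes rests on the same contrast, so these counts restate how many of the genes had at least 6 and at least 3 day 0 sites, and nothing is read from them. The comparisons share the day 0 list. RNA levels were not measured here, so fewer cells with a transcript, less RNA per cell and less binding per RNA cannot be told apart for any of these genes.

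Just outside the rule stood 461 genes with exactly 1 later site. Like those inside, they had a median of 1 day 0 site, and the most was 48 for an unnamed gene (ENSMUSG00000030042), against 82 for Jam2 inside it. The naive pluripotency factors Esrrb, with 39 sites at day 0, 1 at day 3 and 0 at day 10, and Tfcp2l1, with 35, 0 and 1, were kept out by 1 site each. So were Ly75, an endocytic receptor, with 26, 0 and 1 sites, Mcf2, with 23, 1 and 0, and Stmn2, a microtubule regulator, with 17, 1 and 0. Zfp936 held 17, 1 and 0 sites, Tmem117 16, 0 and 1, and Fbrsl1 14, 0 and 1. A single called site thus decides on which side of the rule such genes fall.

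No site had a later site of the same strand at its own position under another gene ID. The deposited lists leave out sites in overlapping genes, so that such sites could not be looked for. Within 100 nt on the same strand there was none for any of the 1529 sites, and within 1000 nt there was 1, in the small nucleolar RNA Snora57, at 136 nt. Of the 28211 other day 0 sites, 33.1% overlapped a later site and 75.4% had one within 1000 nt. Such a site could lie in their own gene. The rule bars later sites in the own gene of the 1529 sites, so this contrast was set by the rule and nothing is read from it. For the 1529 sites, the nearest later site on the same strand was at a median distance of 120 kb. Among 572 named genes, 1 had later sites of other IDs within its span on the same strand, the zinc finger gene Zfp993, with 12 on day 3. On the opposite strand 16 genes had such sites, among them Gm20275, an antisense transcript with 13 day 0 sites, across from Myo9a, an unconventional myosin with 6 day 3 and 14 day 10 sites in that stretch.

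Jam2, which encodes a junctional adhesion molecule of the immunoglobulin family and is expressed in naive stem cells, had the most sites, 82 on day 0. It ranked 17 among all 5056 day 0 genes by number of sites. Per length, with 15.7 sites per 10 kb, it ranked 9 among the 745 named genes with at least 10 day 0 sites. The gene (ENSMUSG00000053062) lies on the plus strand of chromosome 16 between 84774123 and 84826380, and the sites ran through all of it, between 2.72% and 98.2% of its length, with a median gap of 423 nt. The densest 10 kb held 21 sites. Its neighbour Atp5j, a subunit of ATP synthase 1.49 kb downstream, had 0 sites at day 0, 4 at day 3 and 2 at day 10. Mrpl39, a mitochondrial ribosomal protein on the other side, had 0, 1 and 0, in the same order of days, which is kept for all such triples below. The related F11r, another junctional adhesion molecule, held 0, 0 and 8.

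Sgcz, which encodes zeta-sarcoglycan of the dystrophin-associated complex, held 65 sites. The gene (ENSMUSG00000039539) spans 1144 kb on the minus strand of chromosome 8, from 37517840 to 38661705, and has 0.57 sites per 10 kb. All its sites lay between 58.9% and 91.0% of the span, and 16 of them within 10 kb, so that the larger 5' part of the gene was without a site. Of the other sarcoglycan genes, Sgce held 0, 1 and 52 sites and Sgcd 0, 0 and 1. The neighbours of Sgcz, Dlc1 and Tusc3, held 2, 4 and 30 and 3, 1 and 11 sites.

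Cdyl2, a chromodomain protein that binds methylated histone H3, held 32 sites along 164 kb of chromosome 8, from 116568723 to 116732991 on the minus strand. Its paralog Cdyl held sites on all days, 7, 26 and 21. Mme, the cell surface peptidase neprilysin, held 31 sites on chromosome 3, of which 1 lay upstream of the RefSeq span by 54.9% of its length and 2 lay past its end. Dnajc6, the neuronal form of auxilin, which strips clathrin from vesicles, held 26 sites, while the related Gak, expressed in many tissues, held 5, 2 and 6. In Cdyl2 and Dnajc6 the sites averaged 32.9% and 26.5% of the way from the 5' to the 3' end, and in Mme 43.3%.

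**Figure D2:**
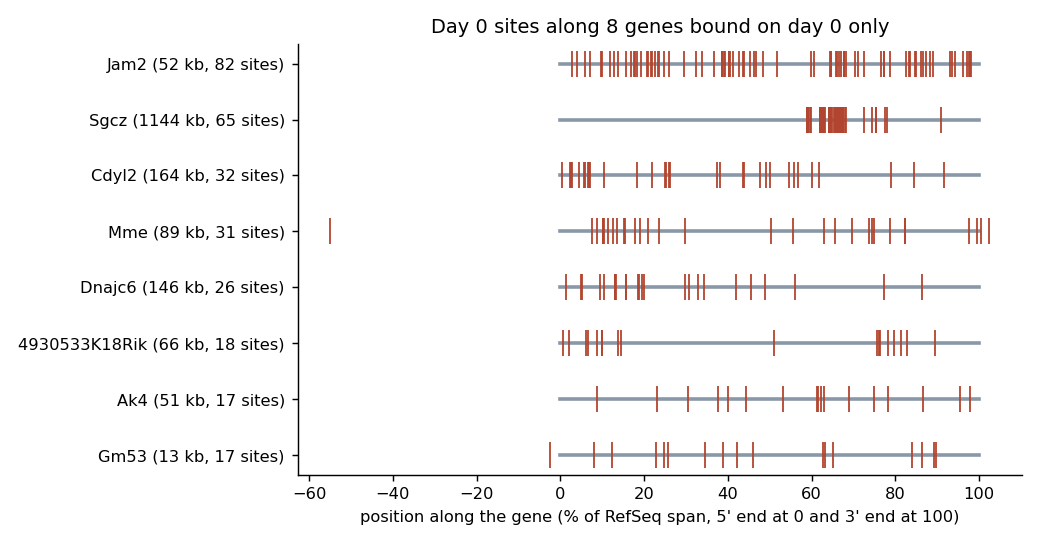
Positions of day 0 sites (ticks) along the 8 genes with most sites among genes bound on day 0 only, as percent of the RefSeq span from the 5' end (0) to the 3' end (100), with the length of the span and the number of sites beside each name. The sites of Jam2 cover the gene, those of Sgcz lie between 58.9% and 91.0%, and 1 site each of Mme and Gm53 lies upstream of the RefSeq start.

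Dnajc6 stood next to Ak4 and Leprot, and all 3 were bound on day 0 only. Ak4, a mitochondrial adenylate kinase, held 17 sites and Leprot, which shares its locus with the leptin receptor, held 1. Together they had 44 sites within 235 kb of chromosome 4, all on the plus strand, without another bound gene in between. Upstream of Ak4, Jak1, a kinase of cytokine signalling including LIF, held 2, 0 and 1 sites. In the order of all bound genes along the chromosomes, there were 7 such runs of 3 genes and 60 of 2, and 509 genes stood alone.

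A second run lay in the Hoxb cluster on chromosome 11. There the long non-coding RNA Gm53 held 17 sites between 96251331 and 96263165, the hairpin of Mir196a-1 shown above held 1 and Hoxb5os, an antisense RNA, held 1. Gm53 had 13.3 sites per 10 kb, rank 17 of the 745 genes, with 15 of its sites within 10 kb. Another run joined Fam13c, with 1 site, an unnamed lincRNA (ENSMUSG00000112883) with 6 and the antisense RNA 4930533K18Rik with 18, all on the plus strand of chromosome 10. The other 4 runs of 3 genes held 3 or 4 sites each.

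Among the 25 genes with most sites were some that encode enzymes and transporters, grouped here after their values were seen. Asns, asparagine synthetase, held 16 sites in 18.0 kb, 8.87 per 10 kb, rank 46 of 745. Slc7a1, a transporter of arginine and lysine, held 15, 2.07 per 10 kb and rank 405, while its relatives Slc7a3 and Slc7a2 held 1, 1 and 0 and 0, 0 and 1 sites. Aspa, which splits acetylaspartate, held 11 sites, 5.03 per 10 kb and rank 137. Alpl, the alkaline phosphatase whose activity is a classical stain for pluripotent colonies, held 10, 1.83 per 10 kb and rank 448, all between 59.6% and 99.2% of its length. Its neighbours Usp48 and Ece1 held 39, 12 and 16 and 0, 0 and 8 sites.

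The remaining genes among the 25 with most sites held between 9 and 16, and Fbxo15 with 15 and Fkbp6 with 14 are described with their lists below. Fry, a very large protein related to furry of Drosophila, held 16 sites, and its paralog Fryl held 19, 10 and 16. Pcsk6, a convertase that cleaves precursors of TGF-beta family ligands such as Nodal, held 14, and its relatives Pcsk5 and Furin held 0, 0 and 2 and 0, 0 and 5. Niban1 held 10. Cmtm7, a membrane protein of the MARVEL family, held 9 and stood between Cmtm6 and Cmtm8, with 0, 1 and 1 and 0, 0 and 2 sites. Trpm1, a cation channel, held 9, and its relative Trpm7 19, 15 and 44. The zinc finger genes Zfp607b and Zfp951 held 9 each, and since such genes have close copies in clusters, reads may have been shared between them. The rest were the antisense RNA Gm20275 with 13, an unnamed protein-coding gene with 11 (ENSMUSG00000032985), an unnamed lincRNA on chromosome 3 with 10 (ENSMUSG00000102987) and an unnamed antisense RNA on chromosome X with 9 (ENSMUSG00000087193).

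**Figure D3:**
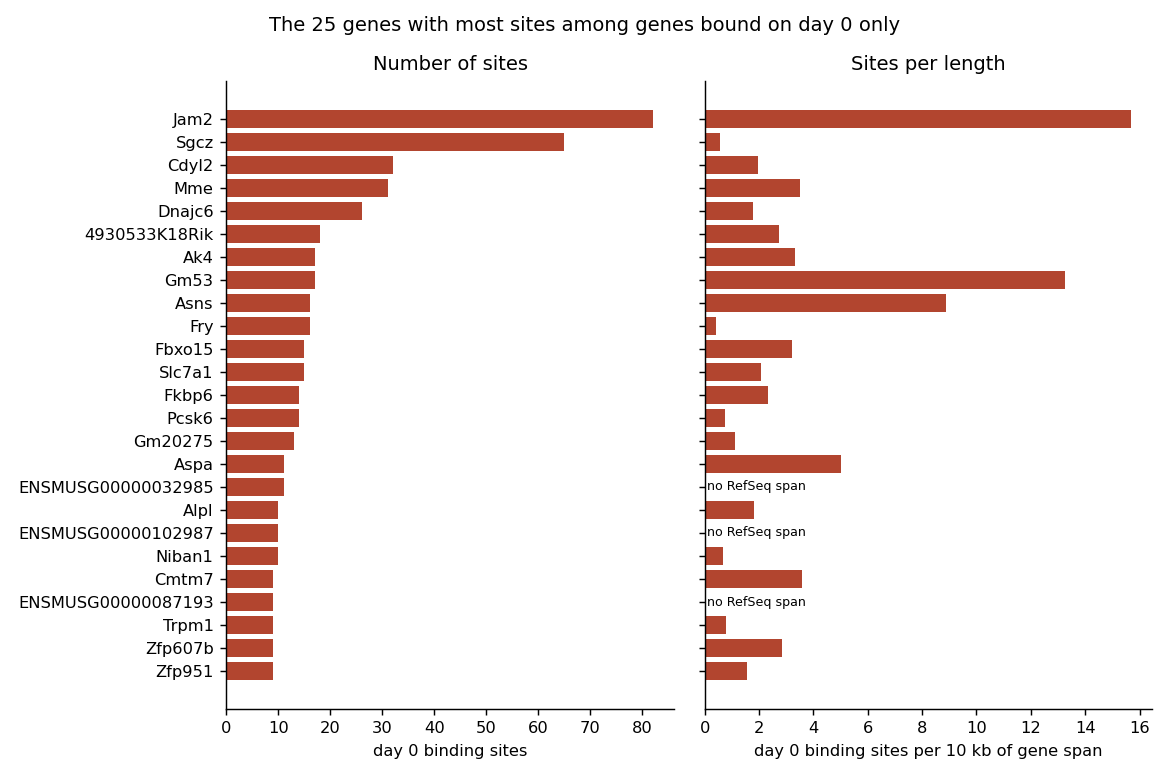
The 25 genes with most sites among genes bound on day 0 only, by number of day 0 sites (left) and by sites per 10 kb of RefSeq span (right, 3 genes have no span there). Jam2 is first in both, Sgcz is second by number with 0.57 sites per 10 kb, and Gm53 and Asns follow Jam2 per length.

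The nearest bound protein-coding genes on either side of 22 of the 25 were looked up, 44 neighbours in all. Of these, 37 had a site on day 3 or day 10, 84.1%, beside 92.7% of all 7145 named protein-coding genes with a site on any day. The difference was not tested, and nothing particular to the neighbours is read from it. The 7 without a later site include Ak4, Dnajc6 and Leprot of the run on chromosome 4.

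Genes of the naive pluripotency network were held in part by the rule. Of the 26 genes listed, 19 had a day 0 site. These 19 had a median of 10 day 0 sites, against 2 over all day 0 genes. Of the 19, 5 had no later site, 26.3% (9.15% to 51.2%), an interval that included the 12.9% of all day 0 genes. That share was 24.5% for all day 0 genes with 1 site and 3.12% for those with 10 to 19. The list was not matched for site number, and the difference was not tested. Besides Jam2, the 5 genes were Fbxo15, an F-box protein and marker of stem cells controlled by Oct4 and Sox2, with 15 sites, Klf4 and Prdm14, factors of the naive state, with 2 each, and Nr0b1, a nuclear receptor known as Dax1, with 1. The other 14 had later sites, such as Nr5a2 with 46, 2 and 0 sites, Zfp42 with 20, 2 and 0, Nanog with 10, 3 and 0 and Tbx3 with 13, 0 and 5. Of 25 genes of pluripotency in the wider sense, 9 had a day 0 site and only Etv4, an ETS factor downstream of FGF signalling, with 2 sites, had no later one, while its relative Etv5 held 31, 35 and 4.

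Among the 12 of the 17 lists with at least 8 day 0 genes, the list of germline and meiosis genes had the largest share. Of 13 with a day 0 site, 7 had no later site, 53.8% (25.1% to 80.8%), and the 13 had a median of 4 day 0 sites. Fkbp6, an immunophilin needed for meiosis and for the silencing of transposons in male germ cells, held 14 sites on chromosome 5. Hormad1, a protein of the meiotic chromosome axis, held 5, Dazl, an RNA-binding protein of germ cells, 4, and Terb2, which anchors telomeres in meiosis, 3. The meiotic cohesin subunits Rec8 and Stag3 and the testis protein Stk31 held 1 each. Of the 18 germline genes with a site on any day, none had more than 1 on day 10. Rnf17 and Hormad2 held 51, 25 and 0 and 32, 12 and 0 sites, Tex14 47, 1 and 1 and Tdrd12 11, 2 and 0. Dmc1, the meiotic recombinase, held 0, 5 and 0. The lists were drawn up with results of these data known, so their shares are no independent evidence.

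Other lists were closer to the 12.9% of all day 0 genes or rested on very few genes. Of genes for amino acid and one-carbon metabolism, 4 of 22 had no later site: Asns with 16, Mthfd2, a mitochondrial folate enzyme, with 2, and Amt, of the glycine cleavage system, and Psph, which makes serine, with 1 each. Of glycan enzymes it was 2 of 15, St8sia1, which makes the ganglioside GD3, with 7 and St3gal4, a sialyltransferase, with 2. Of LIF and JAK-STAT genes it was 2 of 9, Jak3 and Stat2, with 1 each. Of glutamate receptor and synapse genes it was 2 of 8, Grid1 with 2 and Grin1 with 1. Of junction genes it was 2 of 10, Jam2 among them, and of the dystrophin complex Sgcz alone among 8.

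The lists of chromatin, splicing and actin genes held few genes bound on day 0 only. Of 47 chromatin regulators with a day 0 site, 2 had no later site, Cdyl2 and Uhrf1, which maintains DNA methylation, with 4. Of 35 splicing proteins it was 1, Khdrbs2, a paralog of SAM68 itself, with 1 site, while Khdrbs1 held 5, 12 and 48. Of 23 genes of the actin cytoskeleton it was none. The exact intervals of these shares reached 14.5%, 14.9% and 14.8% and so included the 12.9% of all day 0 genes. The median number of day 0 sites over these lists was 8, 6 and 6, against 2 over all day 0 genes. It was higher still for the junction list, 16.5 with a share of 20%, and the dystrophin list, 15 with 12.5%. Of all day 0 genes with 5 to 9 sites, 3.80% had no later site. Nothing particular to the chromatin, splicing and actin lists is therefore read from their low shares.

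**Figure D4:**
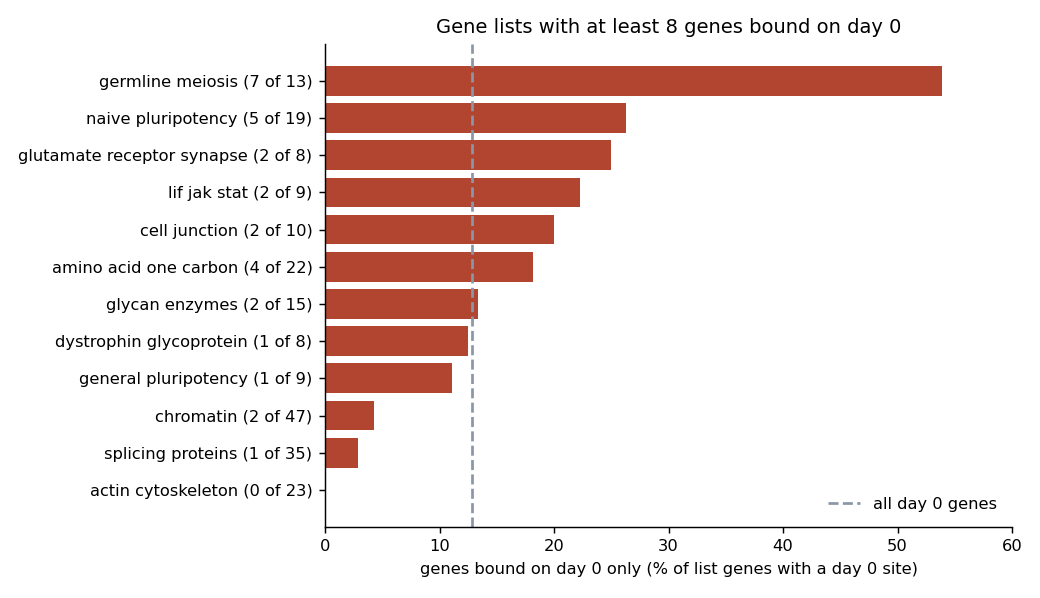
Share of genes bound on day 0 only (horizontal axis, percent) among the genes of each list with a day 0 site, for the 12 lists with at least 8 such genes, with the counts beside each name. The dashed line marks 12.9%, the share over all day 0 genes, and the germline list has 7 of 13.

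Few markers of other cell types had a day 0 site, but some of these held many. Of 18 trophoblast markers none had a day 0 site. Of 18 primitive endoderm, 22 mesoderm and heart and 16 neural markers, 2 each had one, and all 6 genes had later sites. The mesoderm and heart markers Tead1 and Meis2, transcription factors, held 69, 21 and 190 and 36, 1 and 186 sites. The laminin gene Lama1 held 9, 1 and 62 and Sparc, of the extracellular matrix, 2, 3 and 26, both listed for primitive endoderm. The neural markers Ncam1, an adhesion molecule, and Slit2, a guidance factor, held 7, 0 and 28 and 2, 0 and 49. Of 20 markers of the 2-cell-like state 2 had a day 0 site, each with later sites. Of 12 stem cell markers 7 had a day 0 site, among them Nr5a2, Esrrb, Tfcp2l1 and Zfp42 with 20 to 46, while Sox2, Tet1, Sall4, Dppa4 and Utf1 had none.

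Long non-coding RNAs made up a larger part of the genes bound on day 0 only than of the other day 0 genes. They were 69 of 650 genes, 10.6% (8.35% to 13.2%), against 162 of 4406, 3.68% (3.14% to 4.28%). By site they were 178 of 1529, 11.6% (10.1% to 13.4%), against 871 of 28211, 3.09% (2.89% to 3.30%). The difference had the same direction among genes with 1 site, 9.69% against 4.76%, with 2 to 4 sites, 11.6% against 3.36%, with 5 to 9, 11.8% against 3.37%, and with 10 to 19, 26.7% against 2.58%, where 4 of 15 genes were long non-coding. The intervals of both groups overlapped for 5 to 9 sites and did not for the other 3 classes. No long non-coding gene was among the 5 with 20 or more sites. With 1 list per day, none of these differences could be tested over libraries.

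The long non-coding genes were 36 lincRNAs with 92 sites, 18 antisense RNAs with 69, 13 processed transcripts with 15, and 1 each of 2 further classes. The 5 with most sites were 4930533K18Rik, Gm53, Gm20275 and the unnamed ENSMUSG00000102987 and ENSMUSG00000087193, named above. Srrm4os, antisense to a neuronal splicing factor gene, held 7. Pseudogenes were 20 of 650 genes, 3.08% (1.89% to 4.71%), against 64 of 4406, 1.45% (1.12% to 1.85%). By site they were 22 of 1529, 1.44%, against 286 of 28211, 1.01%, with intervals that overlapped. The shares of pseudogenes were not split by site number. Protein-coding genes were 556 of 650, 85.5%, against 4156 of 4406, 94.3%.

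**Figure D5:**
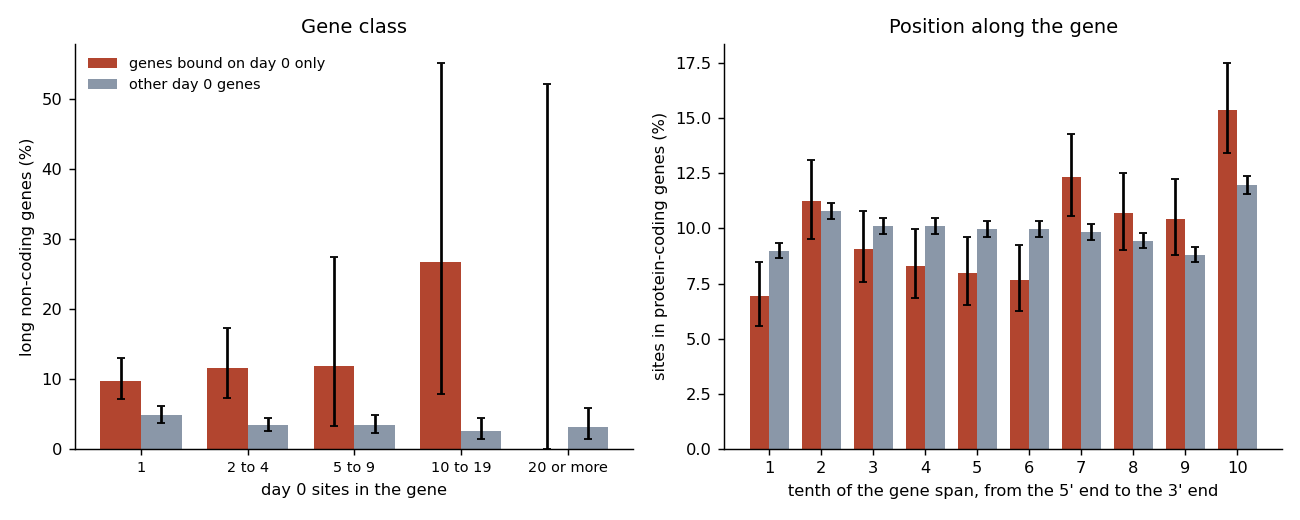
Left, share of long non-coding genes (percent) among genes bound on day 0 only and other day 0 genes, by number of day 0 sites in the gene. Right, share of sites in protein-coding genes (percent) in 10 equal parts of the RefSeq span from the 5' to the 3' end, for the same 2 groups. Bars carry exact 95% binomial intervals, and the last part holds 15.4% of the sites in genes bound on day 0 only.

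Protein-coding genes bound on day 0 only were shorter than the other day 0 genes. Length rose with site number in both groups. The rule bars any later site of a gene, and how far it thereby selects short genes was not tested. The median RefSeq span was 23.2 kb (quartiles 12.4 and 50.0) over 520 genes, against 42.5 kb (21.7 and 87.3) over 4040. Among genes with 1 site the medians were 21.0 kb and 28.9 kb, and among genes with 2 to 4 sites 25.1 kb and 36.0 kb. They were 46.6 kb and 49.6 kb for 5 to 9 sites, 57.4 kb and 67.9 kb for 10 to 19, and 146 kb and 110 kb for 20 or more, so the order turned in the last class. Per length, the genes bound on day 0 only had a median of 0.60 sites per 10 kb, against 0.83 in the others. Among genes with 1 site it was 0.48 against 0.35, which only restates their lengths, since the number of sites is the same.

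Sites near the 3' end were more frequent among the sites of genes bound on day 0 only. Within 2 kb of the 3' end of protein-coding genes lay 202 of 1255, 16.1% (14.1% to 18.2%), against 2256 of 26184, 8.62% (8.28% to 8.96%). The final 20% of the span held 25.8% against 20.8%. The direction of the difference varied with site number. In both groups, few sites in a gene went with a larger share near the end. Within 2 kb of the 3' end, it was 29.0% against 24.3% among genes with 1 site and 23.2% against 17.5% with 2 to 4. With 5 to 9 sites it was 6.09% against 11.3%, with 10 to 19 3.62% against 7.07%, and with 20 or more 2.58% against 2.97%. The intervals of both groups overlapped for 1 site, for 10 to 19 and for 20 or more. The direction of the pooled difference thus holds only for genes with few sites. A fixed 2 kb is also a larger part of a short gene, and among genes with few sites those bound on day 0 only were shorter. Positions were not compared at equal gene length, so a part of length in this difference was not tested. In the final 20% of the span lay 35.9% against 31.7% with 1 site, where intervals overlapped, and 32.0% against 25.1% with 2 to 4. The direction turned with 5 to 9 sites, 18.8% against 21.1%, and with 20 or more, 11.2% against 18.2%. With 10 to 19 it was 20.3% against 20.0%. The seventh of the 10 parts of the span, with 12.4% against 9.83%, holds 47 of the 65 sites of Sgcz. Within 2 kb of the 5' end lay 4.14% (3.11% to 5.40%) against 3.19% (2.98% to 3.41%), intervals that overlapped.

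Pairs of close sites were less frequent in genes bound on day 0 only when all genes were pooled, and not in every class of site number. Of the 1106 sites in genes with at least 2, 66 had another site of the gene within 50 nt, 5.97% (4.64% to 7.53%), against 2495 of 26908 in other day 0 genes, 9.27% (8.93% to 9.63%). No cluster of 3 sites at this spacing was found, and Jam2 had 10 sites in pairs. The intervals of both groups were apart for genes with 5 to 9 sites, 3.52% against 8.98%, and overlapped for 2 to 4 sites, 6.42% against 9.32%, for 10 to 19, 4.83% against 9.30%, and for 20 or more, 8.47% against 9.39%. Within 200 nt the direction turned for 10 to 19 sites, 25.6% against 24.0%, and for 20 or more, 29.7% against 27.3%. Along the chromosomes the genes were spread widely, from 8.29% of the day 0 genes on chromosome 14 to 17.7% on chromosome 9 (13.5% to 22.6%), with 11.7% on chromosome X.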

How the data were processed

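The 15 iCLIP2 libraries, 5 for each day, were grouped by their titles. The authors deposited the called sites of each day as a list; its header records that every site was given to a gene and that overlapping genes were dropped. Per the file headers the score was switched off; it is 0 throughout and was not used. As another kind of value, the deposited positions were used, with site centres counted from 1. Among the programs in the submitters' processing notes are SAMtools 1.22.1, bedtools 2.31.1, UMI-tools 1.1.6 and STAR 2.7.11a. These notes give GRCh38.p14 beside GRCm38.p5 and no roles. For the site caller and the joining of libraries the entry is: not given in the sources used here. Depth is unknown.

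Symbols came from RefSeq (GRCm38.p6) by position, class and, where known, strand, if a span held at least 80% of an ID's sites. This named 572 of 650 IDs, and 7480 of 7949 in the 3 lists. Of all protein-coding sites 98.9% fell inside such a span, and 46.6% did when positions were moved by 1 Mb. Exons and introns were not annotated here. Overlapping promoter windows had the same letters in 3716 of 3716 cases. Shares have exact (Clopper-Pearson) 95% intervals.

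The genes, the 17 lists and the measures were chosen with earlier results of these data known. Named are the 25 genes with most sites, the 5 with most sites of another class than protein-coding, up to 3 from each list, and the 10 with most sites among genes with 1 later site. Every other gene was named after its values were seen, and 1 gene that the rule names is not reported here. Steps were tested on simulated data. Python 3.11.15, NumPy 2.4.6, pandas 2.3.3, SciPy 1.17.1 and matplotlib 3.10.9 were used.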

Additional observations from a re-analysis of the deposited data

How the results depend on the processing

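No paired analysis was possible because the lists pool the 5 libraries of a day, and for the same reason no library could be left out. A stricter score was not run, since every score is 0. The 650 genes and 1529 sites were also found with the ID version kept, 648 and 1527 by symbol, and 649 and 1527 when a later site of any ID inside the span on the same strand was barred. With 1 later site allowed there were 1111 genes and 2597 sites; with at least 2 day 0 sites 227 genes, and with at least 5, 54 genes and 670 sites. The share of clustered sites of 5.97% was 3.98%, 10.5% and 20.2% at gaps of 20, 100 and 200 nt, against 6.01%, 13.6% and 24.0% in other day 0 genes. The median gene length of 23.2 kb was 57.4 kb for genes with 10 to 19 sites and 146 kb for 20 or more. With each gene counted once by its mean position, which draws genes with many sites to the centre, 29.6% lay in the final 20% of the span, against 15.5% of other day 0 genes. Of 28 list genes without a later site, 18 had at least 2 day 0 sites and 8 at least 5. With a 99% interval, 29 genes in place of 47 were lower for day 3 against day 0 and 54 in place of 122 for day 10 against day 0. Without the 5 genes with most sites, 0 windows in place of 1 held TAAA. The windows of 15 nt to each side were chosen after seeing the data; with the 25 nt planned, TAAA was in 1 of 5 windows, against 18 of 84 around other day 0 sites.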

Other observations

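Further groups were put together after the values had been seen, so their counts are a description of what the genes bound on day 0 only contain and get no test. Over all day 0 genes, the share without a later site was 12.9%. Genes that are switched on when amino acids run short formed one of these groups. Of 30 such genes, 16 had a day 0 site and 7 of these had no later site. Beside Asns and Slc7a1 they were Cth, which makes cysteine, with 5 sites, Trib3, a pseudokinase, with 2, Mthfd2 with 2, and Psph and Stc2 with 1 each. Others of the group kept later sites, such as Psat1 with 6 sites at day 0, 0 at day 3 and 1 at day 10, Slc7a5 with 6, 2 and 0 and Atf4, the transcription factor of this response, with 1, 2 and 3. Of 4 genes for the handling of arginine and ornithine with a day 0 site, 3 had none later: Ass1 with 2 and Asl and Slc25a15 with 1.

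Of 9 subunit genes of RNA polymerases I and III with a day 0 site, 5 had no later site: Polr1b, Polr3b and Polr3g with 2 and Polr1c and Polr3e with 1. Of 9 genes of NF-kappaB and interferon signalling with a day 0 site, none had a later one, and the group was put together around them: Bcl3 held 4, Oas1a 2, and Rel, Relb, Tnip1, Traf3, Mavs, Oas1g and Stat2 1 each. Among all 21 genes of this group, some were bound on later days only. Nfkb1 held 0, 0 and 10 sites, Irf1 0, 3 and 0 and Ddx58 0, 0 and 1. Of 25 aminoacyl-tRNA synthetase genes, 4 had no later site, Lars with 3, Mars1 with 2 and Sars and Yars2 with 1. Of 11 genes of the Krüppel-like family with a day 0 site, 4 had no later site: Klf8 with 6 sites, Klf4 with 2 and Klf15 and Klf16 with 1. The others kept later sites, such as Klf3 with 16, 5 and 15, Klf9 with 14, 11 and 5, Klf5 with 10, 2 and 3 and Klf12 with 2, 50 and 12. Most of these genes rest on 1 or 2 called sites, at which 24.5% and, for 2 to 4 sites, 10.4% of all day 0 genes had no later site.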
